A study of Caenorhabditis elegans with 12 samples.

Results

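Long intergenic non-coding RNA (lincRNA) genes of Caenorhabditis elegans were followed in larvae arrested without food. They were taken as every row of the count table whose WormBase identifier carries a symbol made of "linc-" and a number, which gave 170 of 46934 rows. Of these, 169 have the annotation biotype lincRNA and 1, linc-171, has the biotype ncRNA. LincRNAs are transcripts longer than small RNAs that encode no known protein and arise from loci between annotated coding genes. In the worm, as in other animals, many are transcribed by RNA polymerase II, spliced and polyadenylated, and they tend to be less abundant and more restricted to certain tissues or stages than messenger RNAs. Most of the worm genes named in this way are known as transcription units with no described role, so no function is given for the members below.

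RNA was sequenced from whole larvae kept for 48 h in L1 arrest, a halt of development that newly hatched larvae enter in buffer without food. The 3 strains were N2, the wild type, HBR2340, with the genotype flp-11(syb1445), and PHX2193, with the genotype flp-11(syb2193), each with 4 biological replicates (libraries A to D). The product of flp-11 is a set of neuropeptides that the neuron RIS releases to bring about sleep, and what each allele alters is not stated in the labels. The design allows HBR2340 and PHX2193 each to be compared with N2 and with one another. Differences were tested with edgeR's quasi-likelihood test, and every adjusted p below is a Benjamini-Hochberg value over all tested genes.

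Library totals lay between 23068345 and 34832403 counts. The level of flp-11 was 254 ± 76.6 CPM in N2. It was 123 ± 15.4 CPM in HBR2340 and 21.1 ± 1.88 CPM in PHX2193 (TMM-scaled counts per 1e+06 library counts, mean ± SD, n = 4 each). Of 46934 genes, 15908 passed the filter on low counts and were tested. The library N2 B stood apart from the other wild-type libraries: 27.3% of tested genes differed over 2-fold between it and the mean of its 3 fellow libraries, where N2 A, C and D had 6.69% to 10.2%. Marker genes of body wall muscle, intestine, neurons, epidermis, pharynx and germ cells were all detected. Of 5 listed sperm genes, msp-19 and ssp-9 had no count, but the others gave low counts. The sperm list summed to 3.01 to 4.30 CPM in N2, 2.27 to 3.17 CPM in HBR2340 and 3.18 to 6.23 CPM in PHX2193.

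Most lincRNA genes were barely detected at this depth, and a few carried most of the RNA. Over all 12 libraries together, 12 of the 170 had no count, 31 had 1 to 10 counts, 61 had more than 10 and up to 100, 43 had more than 100 and up to 1000, and 23 had over 1000. A count in every library was found for 81. Of the genes with no count, linc-10, linc-59, linc-71, linc-86, linc-98, linc-102 and linc-111 share all their exon bases with another gene. Those of linc-51, linc-70 and linc-92 are shared for the most part, and those of linc-62 and linc-155 not at all. Whether the way of counting or a low level left these genes without counts was not tested. In a single library, between 83 and 104 lincRNA genes reached 3 counts, the floor used here, which corresponded to 0.0823 to 0.170 CPM. For genes below it in every library a difference between strains was not detectable at this depth. A gene below it in 1 strain could still be called. With no filter on low counts, the otherwise untested linc-123 was called higher in PHX2193 than in HBR2340. It had 2, 1, 2 and 5 counts in N2 A to D, 0 in each HBR2340 library, and 3, 5, 2 and 5 in PHX2193 A to D.

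The filter kept 64 lincRNA genes for testing and left out 106, of which 94 had at least 1 count. One tested gene, linc-19, was over the filter level of 0.371 CPM only in the 4 HBR2340 libraries, so its selection is tied to its difference. By chromosome, 16 of 33 lincRNA genes were tested on X, 14 of 34 on II, 10 of 22 on I, 9 of 22 on III, 8 of 33 on V and 7 of 26 on IV. Tested and untested genes had like exon lengths, with medians of 452.5 and 456.5 bases. Spliced genes made up 42 of the 64 tested genes and 74 of the 106 others.

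The name "intergenic" holds in the present annotation for part of the members. The span of 64 of the 170 overlapped another annotated gene, small piRNA loci left aside, and in 39 of them that gene was protein coding. Among the 64 tested genes, 18 overlapped another gene, 10 overlapped a coding gene and 15 shared exon bases with their partner. Among the 106 untested genes these counts were 46, 29 and 39, each a larger share than among the tested genes. The sources used here do not say whether counting used strand, or whether reads on bases shared by genes were counted. Reads from the shared bases of such pairs therefore cannot be told apart, and may be missing from both counts.

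Per kilobase of exon, the most abundant lincRNA was linc-11 (WBcel235 chromosome II, 3373169 to 3374185, minus strand, 2 exons), with a mean level of 66.1 CPM per kb over the 12 libraries. It was followed by linc-8 (40.1 CPM per kb) and linc-24 (27.6 CPM per kb). The next genes, linc-6 (23.9) and linc-22 (23.7 CPM per kb), differed by less than the spread between libraries. The other genes among the 10 highest were linc-56, linc-14, linc-35, linc-15 and linc-17, at 18.4, 17.9, 17.9, 16.2 and 14.4 CPM per kb, neighbours that did not differ beyond that spread. Of these 10 genes, linc-22 shares exon bases with a snoRNA gene, linc-56 with the coding gene ssr-2, and linc-6 and linc-8 with small non-coding genes.

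The median tested lincRNA stood at 3.67 CPM per kb, below the median of 9.16 CPM per kb for 14835 tested coding genes. Above that coding median stood 15 lincRNA genes. The lowest tested gene, linc-153, had 0.129 CPM per kb. Spliced and single-exon lincRNA genes had close medians, 4.08 and 3.45 CPM per kb.

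**Figure D1:**
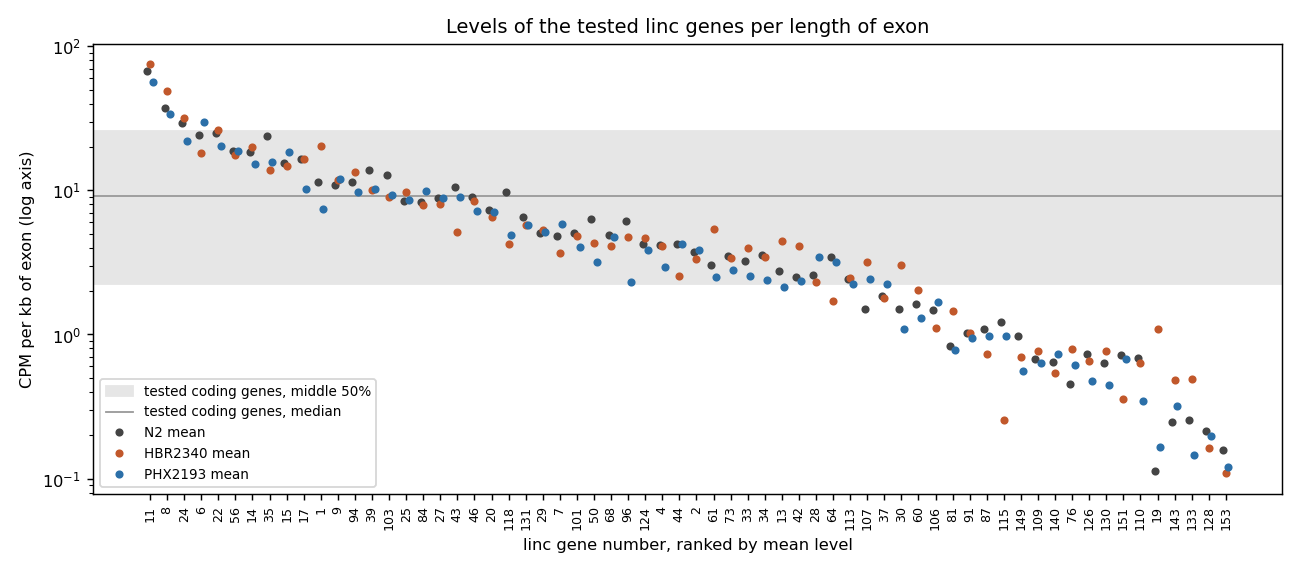
Mean level of each of the 64 tested lincRNA genes in N2, HBR2340 and PHX2193, in CPM per kb of exon on a log axis, with the genes ranked by their mean over 12 libraries. The grey band and line are the middle part and the median (9.16 CPM per kb) of tested coding genes, and 15 lincRNA genes lie above that line.

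The transcript linc-22 (chromosome X, 9069138 to 9073735, plus strand, 5 exons) contributed most reads, from 4071 bases of exon. It made up 26.5% of the summed lincRNA level, linc-11 17.6% and linc-8 9.68%. The 64 tested genes together made up 97.5%. Summed over all 170 genes, the N2 libraries A to D held 300.4, 512, 355 and 350 CPM. The sums were 388, 378, 419 and 385 CPM in HBR2340 A to D, and 309, 318, 327 and 319 CPM in PHX2193 A to D. Every HBR2340 library was above every PHX2193 library on this scale, but without the TMM factors the ranges overlapped, at 357 to 416 CPM in HBR2340 and 307 to 377 CPM in PHX2193. The log2 ratio of the PHX2193 to the HBR2340 mean was −0.30, and −0.17 without the factors. That of HBR2340 to N2 was 0.05 with N2 B and 0.23 without it. The scaling touched N2 B most, with a TMM factor of 0.717, and its unscaled sum was 367 CPM, within the 300 to 399 CPM of the other N2 libraries.

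**Figure D2:**
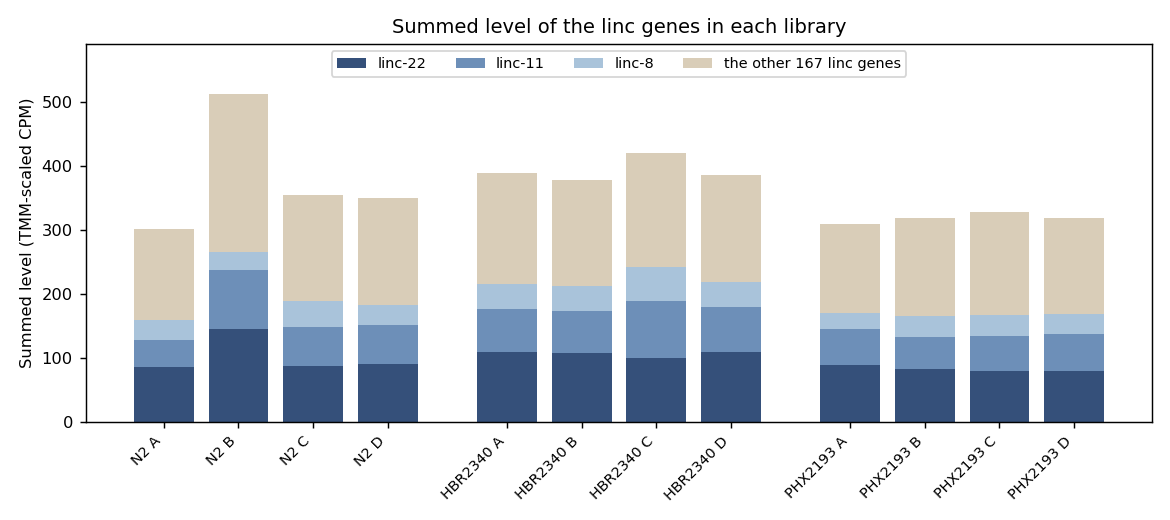
Summed level of the lincRNA genes in each of the 12 libraries, in TMM-scaled CPM, split into linc-22, linc-11, linc-8 and all remaining members. The HBR2340 bars (378 to 419 CPM) all stand above the PHX2193 bars (309 to 327 CPM) and N2 B is the highest bar (512 CPM). Without the TMM factors both strains overlap (357 to 416 and 307 to 377 CPM) and N2 B has 367 CPM.

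HBR2340 against N2. Larvae of HBR2340 carried more RNA of linc-19 and linc-30, and no lincRNA gene was called lower. These 2 of 64 tested genes make 3.13%, where 7.37% of all tested genes were called (1173 of 15908, 3.34% higher and 4.03% lower). At an unadjusted p under 0.05, 6 of the 64 were lower and 9 higher, where 11.8% of all tested genes were lower and 9.13% higher. DESeq2 called 6 of the 64 (9.38%, beside 11.9% over all genes with an adjusted p), of which 2 were lower in HBR2340. Limma-voom called 2, where 6.75% of all genes were called. The median log2 fold change of the tested lincRNA genes was −0.05, beside −0.04 over all genes.

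The spliced gene linc-19 (chromosome III, 3150222 to 3151352, plus strand, 3 exons) had 2, 0, 1 and 6 counts in N2 A to D, 14, 17, 30 and 23 counts in HBR2340 A to D, and 1, 1, 6 and 6 counts in PHX2193 A to D. The HBR2340 libraries stood apart from all 8 others. In CPM its mean level was 0.0801 ± 0.0915 for N2, 0.785 ± 0.257 for HBR2340 and 0.118 ± 0.0963 for PHX2193 (mean ± SD, n = 4 each). Its log2 fold change in HBR2340 was 3.15 ± 0.69 (SE; edgeR adjusted p = 0.0151). The wild-type mean is under the floor of 3 counts in most libraries, so the fold is imprecise. Without N2 D it was 4.18, and the call ended without N2 A (edgeR adjusted p = 0.0502) or HBR2340 C (edgeR adjusted p = 0.0530).

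The single-exon gene linc-30 (chromosome I, 2046539 to 2048913, plus strand) had a level of 3.13, 5.39, 2.96 and 2.88 CPM in N2 A to D, 5.54, 6.59, 9.26 and 7.43 in HBR2340 A to D, and 2.23, 2.08, 3.87 and 2.11 in PHX2193 A to D. Every HBR2340 library was above every other library, by a narrow margin over N2 B. The log2 fold change in HBR2340 against N2 was 1.01 ± 0.28 (edgeR adjusted p = 0.0432). This call lay near the threshold. It held in 2 of 12 fits that left out 1 library each, those without N2 B or PHX2193 C, and the edgeR adjusted p reached 0.157 without HBR2340 C. The call also ended with DESeq2's size factors (edgeR adjusted p = 0.0555), with only the 8 libraries compared (0.0711) and without the D libraries of N2 and PHX2193 (0.105). Over all 20 other fits the log2 fold change was 0.85 to 1.25.

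Outside these calls, the groups of HBR2340 and N2 did not overlap in 7 more of the 64 genes, a total of 9 or 14.1%, where the share over all tested genes was 13.8%. The single-exon gene linc-35 (chromosome II, 6927637 to 6927825) was one of them, with 3.13, 7.10, 3.81 and 4.09 CPM in N2 and 2.54, 2.73, 2.39 and 2.76 CPM in HBR2340. Its log2 fold change of −0.79 ± 0.24 did not pass (edgeR adjusted p = 0.0638). It was called without N2 A (edgeR adjusted p = 0.0414) and without N2 B (edgeR adjusted p = 0.0417), with log2 fold changes of −0.95 and −0.51. DESeq2 called linc-35 too. The coding gene F22D3.4, 33 bases away, had a log2 fold change of −0.735 here. In PHX2193 against N2 it had −0.435 and linc-35 −0.595. Of the 64 tested lincRNA genes, 31 had the same sign as their nearest tested coding gene in HBR2340 against N2. A link between linc-35 and F22D3.4 was not tested. Without N2 B, 6 of 68 tested lincRNA genes were called (8.82%), where 17.7% of all tested genes were. They were linc-19, linc-30, linc-22 and linc-143, higher in HBR2340, and linc-35 and linc-151, lower.

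PHX2193 against HBR2340. Between the flp-11 strains 10 lincRNA genes were called, 9 lower and 1 higher in PHX2193. They make 15.6% of the 64 tested genes, where 19.5% of all tested genes were called (9.39% lower and 10.1% higher). At an unadjusted p under 0.05, 16 were lower and 5 higher, where 15.1% of all tested genes were lower and 16.3% higher. The median log2 fold change of the lincRNA genes was −0.24 and that of all genes 0.02. The calls of linc-30, linc-133, linc-1 and linc-19 held in all 20 other fits, among them each library left out in turn.

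For linc-30, with the levels given above, the log2 fold change was −1.49 ± 0.28 (edgeR adjusted p = 0.00254). For linc-19 it was −2.68 ± 0.64 (edgeR adjusted p = 0.0112), against PHX2193 libraries of which A and B were under the floor. In both genes every HBR2340 library was above all libraries of the other strains. The limits on their calls against N2 given above remain, and linc-19 passed the filter only through its HBR2340 libraries.

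The long transcript linc-133 (chromosome II, 7837826 to 7841485, plus strand, 2 exons) had 0.782, 0.568, 0.740 and 1.31 CPM in N2 A to D, 1.88, 2.11, 1.37 and 1.18 CPM in HBR2340 A to D, and 0.589, 0.361, 0.406 and 0.565 CPM in PHX2193 A to D. All PHX2193 libraries lay below all HBR2340 libraries (log2 fold change −1.76 ± 0.33, edgeR adjusted p = 0.00256). It overlaps linc-110 on the other strand over 865 exon bases. The level of linc-110 was 1.01 ± 0.34 CPM in PHX2193, below 1.87 ± 0.15 CPM in HBR2340 and 2.04 ± 0.64 CPM in N2. Reads from the shared bases of this pair cannot be assigned without strand, and whether they were counted is not stated. The non-coding gene T09A5.18, which shares 200 exon bases with linc-133 on the other strand, had a mean of 0 CPM in every strain.

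The short transcript linc-1 (chromosome I, 13652524 to 13652727, plus strand, 157 exon bases) had 1.82, 0.965, 2.33 and 2.03 CPM in N2 A to D, 3.55, 3.04, 3.59 and 2.64 in HBR2340 A to D, and 1.51, 1.505, 0.701 and 0.922 in PHX2193 A to D. The HBR2340 libraries stood above all others. Against HBR2340 the log2 fold change in PHX2193 was −1.47 ± 0.32 (edgeR adjusted p = 0.006). The difference of HBR2340 from N2, 0.83 ± 0.31, did not pass (edgeR adjusted p = 0.136).

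**Figure D3:**
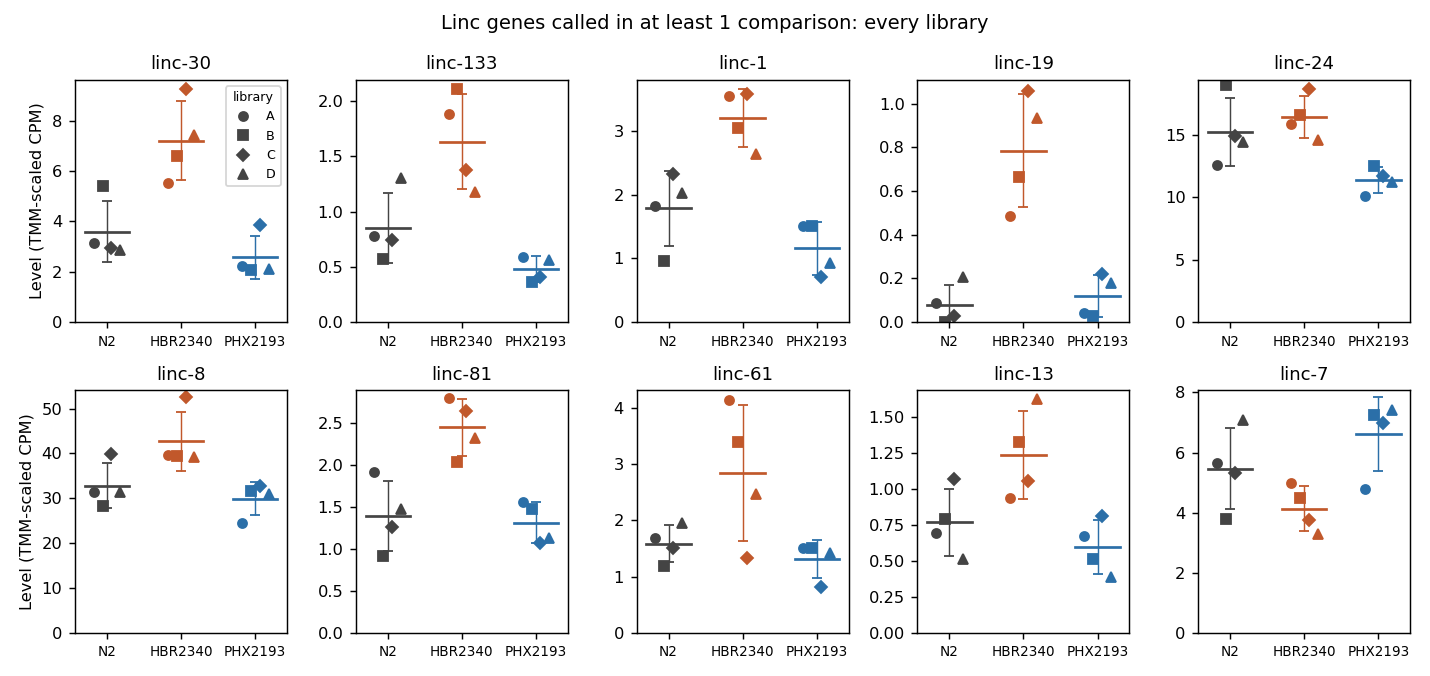
Level of the 10 lincRNA genes called in at least 1 comparison, in TMM-scaled CPM, for every library of N2, HBR2340 and PHX2193. Marker shapes give the library letter, horizontal lines the mean and error bars the SD of 4 libraries, and each vertical axis starts at 0. In linc-30, linc-1, linc-19 and linc-81 all 4 HBR2340 libraries lie above all other libraries.

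The abundant transcripts linc-24 and linc-8 changed by less. The level of linc-24 (chromosome III, 1370495 to 1371568) in N2 A to D was 12.6, 18.96, 14.9 and 14.4 CPM, 15.9, 16.6, 18.7 and 14.6 in HBR2340 A to D, and 10.1, 12.5, 11.7 and 11.2 in PHX2193 A to D. On the TMM scale PHX2193 was below both other strains in every library, by a narrow margin between PHX2193 B (12.52 CPM) and N2 A (12.59 CPM). Against HBR2340 the log2 fold change was −0.53 ± 0.14 (edgeR adjusted p = 0.0167). Against N2 it was −0.42 ± 0.14, which did not pass (edgeR adjusted p = 0.240). The call ended without HBR2340 B (edgeR adjusted p = 0.0530) or C (edgeR adjusted p = 0.0694).

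The gene linc-8 (chromosome II, 2501838 to 2503802, 5 exons) had 31.4, 28.3, 39.98 and 31.4 CPM in N2 A to D, 39.7, 39.5, 52.7 and 39.2 in HBR2340 A to D, and 24.5, 31.7, 32.7 and 30.9 in PHX2193 A to D. PHX2193 and HBR2340 did not overlap (log2 fold change −0.51 ± 0.14, edgeR adjusted p = 0.0215). HBR2340 C was the highest library, and without it the call ended (edgeR adjusted p = 0.0852), as it did without PHX2193 A (edgeR adjusted p = 0.0607) and without the D libraries of N2 and PHX2193.

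The remaining 4 called genes had adjusted p-values near the threshold. Lower in PHX2193 than in HBR2340 were linc-81 (chromosome V, 19895684 to 19897795; 2.44 ± 0.34 CPM in HBR2340 to 1.31 ± 0.24), linc-61 (chromosome V, 16043099 to 16043761; 2.84 ± 1.21 to 1.31 ± 0.34) and linc-13 (chromosome II, 1071507 to 1071839; 1.24 ± 0.30 to 0.596 ± 0.186). Their log2 fold changes were −0.90, −1.11 and −1.06 (edgeR adjusted p of 0.0272, 0.0372 and 0.0390). In N2 the same genes had 1.39 ± 0.42, 1.59 ± 0.32 and 0.769 ± 0.232 CPM. The groups overlapped in linc-61, where HBR2340 C had 1.34 CPM and the other HBR2340 libraries 2.48 to 4.15 CPM.

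The 1 gene that was higher in PHX2193 was linc-7 (chromosome X, 16002599 to 16003728, plus strand). Its level in N2 A to D was 5.65, 3.80, 5.32 and 7.07 CPM, 4.98, 4.49, 3.77 and 3.29 in HBR2340 A to D, and 4.80, 7.25, 6.97 and 7.43 in PHX2193 A to D. The groups overlapped through PHX2193 A (log2 fold change 0.68 ± 0.22, edgeR adjusted p = 0.0466). It lies within the span of the coding gene C09G1.4 on the other strand, shares no exon base with it, and that gene had close levels in all strains (18.5, 22.02 and 20.2 CPM in N2, HBR2340 and PHX2193). Leaving out 1 library at a time ended these calls often. That of linc-7 ended in 8 of 12 such fits (without N2 A or C, or without B, C or D of either flp-11 strain), with an edgeR adjusted p of up to 0.129. That of linc-61 ended in 8 (N2 A, HBR2340 A, B or D, or any PHX2193 library; up to 0.131), that of linc-13 in 7 (N2 A, HBR2340 B, C or D, PHX2193 A, B or D; up to 0.126) and that of linc-81 in 6 (HBR2340 A, C or D, PHX2193 B, C or D; up to 0.0882). All 4 calls also ended with no filter on low counts and without the D libraries of N2 and PHX2193, and that of linc-61 with limma-voom.

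In all, PHX2193 and HBR2340 did not overlap in 19 of the 64 genes (29.7%), where the share over all tested genes was 35.5%. In 15 of the 19 PHX2193 was lower, among them the abundant linc-11 and linc-22, and in 4 it was higher. The split by direction over all tested genes was not counted for this measure. The level of linc-22 was 109, 107, 99.6 and 108 CPM in HBR2340 A to D and 88.2, 82.7, 79.0 and 78.6 CPM in PHX2193 A to D, a log2 fold change of −0.37 ± 0.15 that did not pass (edgeR adjusted p = 0.118). The level of linc-11 was 72.5 ± 10.98 CPM in HBR2340 and 54.9 ± 3.55 in PHX2193 (−0.40 ± 0.19, edgeR adjusted p = 0.164). Without N2 B, 19 of 68 tested lincRNA genes were called (27.9%; 16 lower and 3 higher in PHX2193), linc-11 and linc-22 among them. The share over all tested genes was then 32.9%, with 5339 called in place of 3106.

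**Figure D4:**
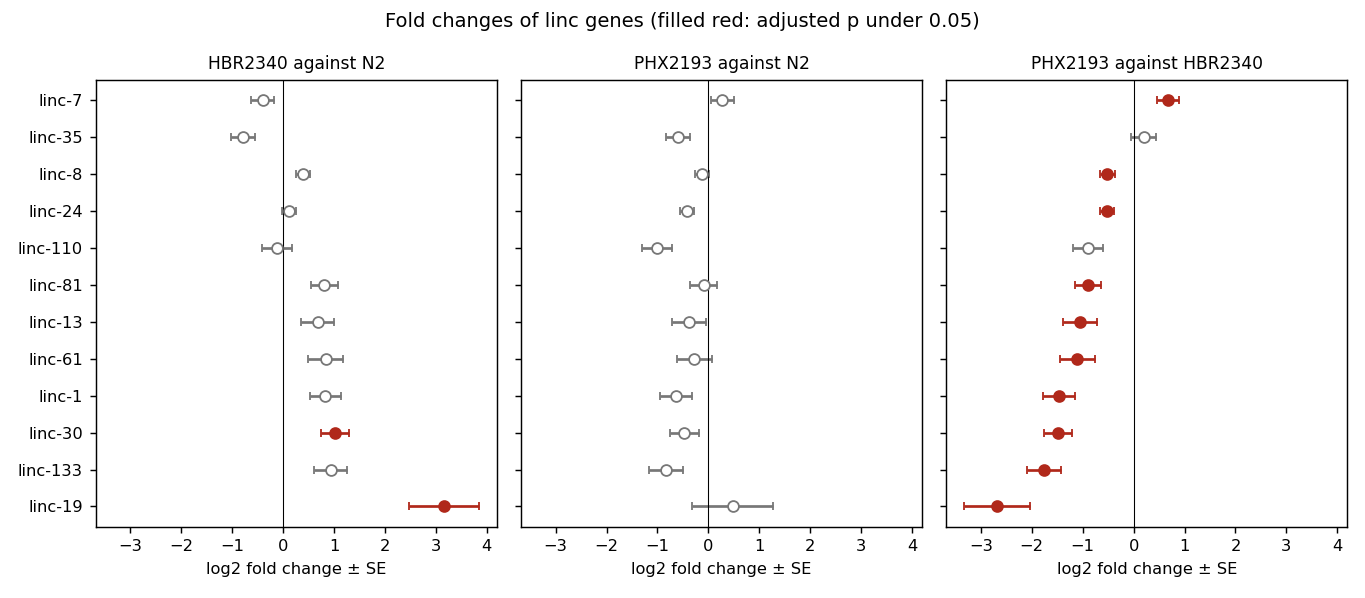
Log2 fold change ± SE of 12 lincRNA genes in the 3 comparisons: the 10 called genes, and linc-35 and linc-110, whose groups did not overlap at an unadjusted p under 0.01. Filled red points passed at an adjusted p under 0.05: 2 in HBR2340 against N2, none in PHX2193 against N2 and 10 in PHX2193 against HBR2340.

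PHX2193 against N2. No lincRNA gene was called between PHX2193 and the wild type in edgeR's quasi-likelihood test, and 7 of 64 had an unadjusted p under 0.05, all 7 lower in PHX2193, where 7.03% of all tested genes were lower at that p and 4.56% higher. DESeq2 called 2, linc-110 and linc-96 (3.13%, beside 2.85% over all genes with an adjusted p), and limma-voom 0, where it called 0.327% of all genes. With edgeR 0.365% of all tested genes were called (0.163% higher and 0.201% lower), so few calls were made for any kind of gene. The median log2 fold change of the lincRNA genes was −0.16, beside −0.01 over all genes.

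The groups did not overlap in 4 of the 64 genes (6.25%, beside 6.03% over all tested genes), and PHX2193 was lower in each. The split by direction over all tested genes was not counted for this measure. For linc-110 (chromosome II, 7836075 to 7841128, minus strand) the N2 libraries A to D had 1.65, 2.95, 2.03 and 1.55 CPM, above 1.26, 0.873, 1.33 and 0.595 CPM in PHX2193 A to D. Its log2 fold change was −1.01 ± 0.30 (edgeR adjusted p = 0.183). The groups overlapped in linc-17, which, with 6.61 ± 1.24 CPM in N2 and 4.06 ± 1.18 in PHX2193, had −0.70 ± 0.23 (edgeR adjusted p = 0.234).

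Other measures moved with the strains. Of 15 body wall muscle markers, 10 were higher and 0 lower in HBR2340 than in N2, and 12 were lower and 0 higher in PHX2193 than in HBR2340 (edgeR quasi-likelihood, adjusted p under 0.05). Their summed level was 10206 to 18319 CPM in N2, 23078 to 24852 in HBR2340 and 6576 to 11202 in PHX2193, and none was at 0. Of 3 tested yolk genes 2 were lower in HBR2340 than in N2 and 2 higher in PHX2193 than in HBR2340. The summed level of the 5 listed yolk genes was 2.33 to 8.25 CPM in N2, 2.15 to 3.04 CPM in HBR2340 and 10.4 to 16.2 CPM in PHX2193. In HBR2340 against N2, 1 of 8 intestine and 1 of 7 pharynx markers were lower and 1 of 7 epidermis markers was higher. In PHX2193 against HBR2340, 3 pharynx, 1 intestine and 1 sperm marker were higher, and 1 of 10 neuron markers and 1 epidermis marker were lower. The summed level of the 7 pharynx markers went the other way from the 3 called ones. It was 3657 to 8516 CPM in N2, 6902 to 8077 CPM in HBR2340 and 3624 to 5982 CPM in PHX2193. The part of these cell types in the lincRNA differences was not tested. In whole larvae fewer cells of a type and less RNA per cell cannot be told apart.

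The wild-type library N2 B also differed in its lincRNAs. It was the highest of the 4 N2 libraries in 31 of the 64 tested lincRNA genes and the lowest in 17. More than 2-fold above the mean of the other N2 libraries were 9 genes and more than 2-fold below 6, together 23.4%, where N2 A, C and D had 12.5%, 4.69% and 10.9%. The median log2 ratio was 0.27 for lincRNA genes in N2 B and −0.15 over all tested genes. The direction rests on the scaling: without the TMM factors these medians were −0.26 and −0.70, and N2 B was the highest N2 library in 13 lincRNA genes and the lowest in 27.

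Examples chosen after their values were seen show how far single members went. The untested gene linc-158 (chromosome IV, 3450370 to 3450735, 2 exons) had 261 counts in N2 B and 0 to 6 in each of the 11 other libraries. The gene linc-125, also untested (chromosome II, 7238948 to 7242909) had 70 counts there and 1 to 13 elsewhere. Its neighbour aqp-1, an aquaporin gene 598 bases away, had 59.1 CPM in N2 B and 5.95 to 16.3 CPM elsewhere.

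Among the tested genes, linc-118 (chromosome X, 15617415 to 15617830) had 3.41 CPM in N2 B and 0.234 to 0.752 CPM in the others. The level of linc-103 (chromosome X, 6256778 to 6258976) was 37.5 CPM in N2 B and 5.91 to 14.0 CPM in the others. The nearest coding gene on its left, got-2.2, an aspartate aminotransferase gene, lies 14068 bases away and had 1139 CPM in N2 B and 53.8 to 105 CPM in the others. Closer to linc-103, at 4671 bases, lies its nearest tested coding gene, W05H9.4, whose level in N2 B is not given here. As chosen examples, got-2.2 and aqp-1 do not show whether lincRNA genes and their neighbours rose together in N2 B.

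**Figure D5:**
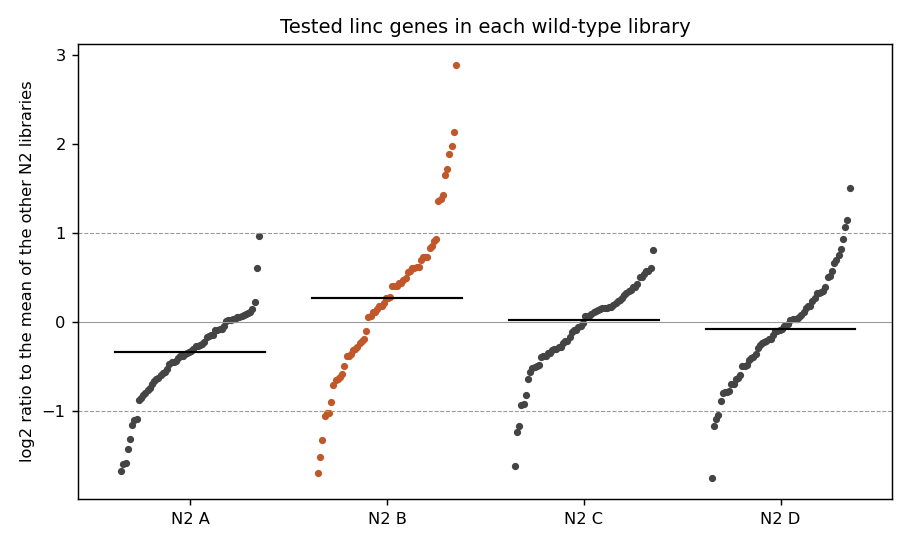
Log2 ratio of each of the 64 tested lincRNA genes in 1 wild-type library to the mean of the other 3 N2 libraries, with 0.1 CPM added to both. Points are genes sorted by ratio, black bars medians and dashed lines 2-fold. In N2 B (orange) 9 genes lie above and 6 below the dashed lines, and without the TMM factors 6 and 13 do.

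Many lincRNA genes sit next to coding genes, and the levels of neighbours were set beside theirs. Of the tested coding genes next to a called lincRNA on its left or right, 2 were called. Both calls were in PHX2193 against HBR2340, where 19.5% of all tested genes were called. Of linc-30's neighbours, Y20F4.4 (2733 bases to the left, opposite strand) went the other way, from 116 ± 5.71 CPM in HBR2340 to 202 ± 28.8 in PHX2193 (log2 fold change 0.80, edgeR adjusted p = 0.0121). Y20F4.8, 226 bases to the right, had 3.004 and 3.36 CPM in HBR2340 and PHX2193. Of linc-19's neighbours, C44B11.6 (1795 bases to the right, same strand) was lower in PHX2193 too, from 15.9 ± 0.87 to 9.63 ± 0.40 CPM (−0.73, edgeR adjusted p = 0.00719).

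Both coding genes next to linc-24 were untested, and its nearest tested coding gene, Y82E9BR.10, lies 3676 bases away. That gene had 0.0406 to 0.117 CPM in the HBR2340 libraries and 0.631 to 0.803 CPM in those of PHX2193, so it was higher in PHX2193 (log2 fold change 2.999 ± 0.594, edgeR adjusted p = 0.0035) where linc-24 was lower. All its HBR2340 values are at or below the floor of 3 counts, so the fold is imprecise.

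The other tested genes next to a called lincRNA, left or right, were called in no comparison. The ribosomal protein gene rpl-31, 221 bases from linc-1, had 951 ± 82.8, 854 ± 39.4 and 937 ± 118.9 CPM in N2, HBR2340 and PHX2193. The glycosyltransferase gene gly-4, 333 bases from linc-81, had 33.1 ± 8.71, 42.0 ± 1.69 and 35.2 ± 1.30 CPM in the same order. The histone gene his-1, 267 bases from linc-61, was near the floor, with means of 0.197 to 0.395 CPM. On the left of linc-24, 10725 bases away, the coding gene Y82E9BR.9 had no count in any library.

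Over all 64 tested lincRNA genes and their nearest tested coding gene, at a median distance of 734 bases, the log2 fold changes correlated with r = 0.11 in HBR2340 against N2, 0.07 in PHX2193 against N2 and 0.08 in PHX2193 against HBR2340. For 14835 coding genes and their nearest tested coding gene, a median of 248 bases apart, r was 0.21, 0.15 and 0.23. In the same order, the signs were alike in 48.4%, 51.6% and 60.9% of the lincRNA pairs. In the coding pairs they were alike in 56.5%, 55.0% and 57.0%. These are descriptions across genes that share libraries, and genes are not independent replicates.

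Other long non-coding RNAs with names of their own gave a scale for these levels. The RNA tts-1 (chromosome X, 1504131 to 1504841), which is known to rise in long-lived mutants of the insulin pathway and of mitochondria, had a mean of 8748 CPM per kb, far above any linc gene. Its level in N2 A to D was 3256, 10549, 5757 and 4973 CPM, 8514, 8144, 10083 and 7465 in HBR2340 A to D, and 4534, 3709, 3871 and 3782 in PHX2193 A to D. PHX2193 was below HBR2340 in every library (log2 fold change −1.11 ± 0.28, edgeR adjusted p = 0.0134). Against N2 neither strain passed (edgeR adjusted p = 0.355 for HBR2340 and 0.406 for PHX2193).

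The RNA rncs-1 (chromosome X, 1011501 to 1012347), known to rise on starvation and to inhibit Dicer, had mean levels of 645 ± 73.1 CPM in PHX2193, 526 ± 100.4 CPM in HBR2340 and 448 ± 205 CPM in N2, and was called in no comparison (lowest edgeR adjusted p = 0.537). Its lowest library was N2 B, at 180 CPM. The RNA lep-5 (chromosome X, 12652591 to 12653520), a lincRNA of developmental timing, was low and moved opposite to most called linc genes. It had 1.35, 0.738, 1.23 and 1.61 CPM in N2 A to D, 0.662, 0.741, 0.493 and 0.852 in HBR2340 A to D, and 1.98, 2.65, 1.99 and 1.84 in PHX2193 A to D. PHX2193 was above HBR2340 in every library (log2 fold change 1.62 ± 0.29, edgeR adjusted p = 0.00179), and this call and that of tts-1 held in all 20 other fits.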

How the data were processed

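The authors deposited raw counts per gene and library for 46934 WormBase gene identifiers. Per the submitters' processing notes Bowtie 0.12.2 was used, and WBcel235 and mm8 are named as builds. The counting tool, its annotation, strand setting and use of multiple hits: not given in the sources used here. Symbols, positions and exons came from Ensembl release 115 of WBcel235, which holds 46924 of the identifiers. The test was edgeR 4.0.16 under R 4.3.3: filterByExpr by strain (minimum count 10, minimum total 15), TMM scaling, and a robust quasi-likelihood fit with 1 term per strain on all 12 libraries. Tests were two-sided. Calls needed an adjusted p (Benjamini-Hochberg, 15908 genes) under 0.05. The step was tested on simulated data. CPM values are scaled by TMM unless stated, and levels per kb use the joined exons of a gene. Depth was 23068345 to 34832403 counts, and floors cover counting error only. Named genes are those called, the 10 highest per kb, up to 5 uncalled genes whose groups did not overlap at an unadjusted p under 0.01, tts-1, rncs-1, lep-5, flp-11 and the nearest genes of called ones. Members and lists were chosen with earlier results of these data known. Other settings were DESeq2 1.42.0, limma-voom (limma 3.58.1), other size factors and filters, only the 8 libraries compared, a replicate block and each library left out. Base composition was not used here. No pair of libraries within a strain was closer than a chi-square of 15.1 per degree of freedom, so each counts as 1 sample.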

Additional observations from a re-analysis of the deposited data

Results flagged for a closer look

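Of 72 strain groups of 4 libraries examined, 9 had a library whose gap to the nearest other library took nearly the whole range of the group; chance gives about 1 in 20. In N2, library B had the high value: 5.39 CPM of linc-30 (others 2.88 to 3.13), 144 CPM of linc-22 (84.8 to 89.4), 19.2 CPM of linc-56 (12.2 to 12.6) and 367 CPM of flp-11 (206 to 231). In HBR2340, library C had 52.7 CPM of linc-8 (39.2 to 39.7). In PHX2193, library C had the high value of linc-30, 3.87 CPM (2.08 to 2.23), and the low value of linc-61, 0.812 CPM (1.43 to 1.51). PHX2193 A had the low value of linc-14, 3.49 CPM (3.97 to 4.02), and of rncs-1, 537 CPM (668 to 692). For linc-8, linc-22, linc-30 and linc-61 the fits without these libraries are given above. The genes linc-56, linc-14 and rncs-1 were called in no comparison. Against N2, flp-11 had a log2 fold change of −1.05 in HBR2340 (edgeR adjusted p = 0.00368) and −3.59 in PHX2193 (edgeR adjusted p = 1.28e-06). Both flp-11 calls held in all 20 other fits.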

How the results depend on the processing

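The number of lincRNA genes called depended on the setting. In HBR2340 against N2 (2 called) it was 1 with DESeq2's size factors in edgeR, 1 with the replicate block, 1 with only the 8 libraries compared and 6 with DESeq2, and 0 to 6 when 1 library was left out, with 0 without HBR2340 C and 6 without N2 B. In PHX2193 against N2 (0 called) it was 2 with DESeq2 and 0 in every fit without 1 library. In PHX2193 against HBR2340 (10 called) it was 9 with the replicate block, 18 with only the 8 libraries compared, and 5 without the D libraries of N2 and PHX2193, a setting chosen after seeing the data because their deviations from the strain means correlated (r = 0.66). Leaving out 1 library gave 6 to 19, with 6 without HBR2340 B, C or D or PHX2193 B or D and 19 without N2 B. Over all genes, counts were 1856, 446 and 3715 with DESeq2 (1173, 58 and 3106 in the order of the comparisons above) and 627, 3 and 5316 with only the 8 libraries compared. They were 24 with the replicate block and 4 without the D libraries in PHX2193 against N2, and 661 to 2880, 7 to 228 and 2237 to 5339 without 1 library. The cause of these shifts was not tested. Same-lettered libraries did not deviate together as a rule (N2 A and PHX2193 A, r = −0.07), so the letters were not taken as pairs. The replicate block ended the calls of linc-30 in HBR2340 against N2 (edgeR adjusted p = 0.0563) and of linc-7 (0.0889) and linc-13 (0.0579) in PHX2193 against HBR2340. No direction of a named call reversed in the settings run. The log2 ratio of the summed level between PHX2193 and HBR2340 moved from −0.30 to −0.17 without TMM scaling, a setting chosen after seeing the data, and by less than the SD between libraries in the other settings, as did both other ratios in all settings. Depth limits the genes under 3 counts.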

Other observations

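Other non-coding classes were set beside the linc genes. Of 57 antisense RNA genes with anr symbols 20 were tested, and 1 was called in any comparison, lower in PHX2193 than in HBR2340. Of 7787 other ncRNA and lincRNA genes 222 were tested. Of these, 5 were higher and 2 lower in HBR2340 than in N2, and 17 were higher and 20 lower in PHX2193 than in HBR2340 (edgeR quasi-likelihood, adjusted p under 0.05), with a median log2 fold change of −0.21 in the latter comparison. Of 643 tested pseudogenes 66 were higher and 59 lower there, with a median of 0.13. The median level per kb was 4.84 CPM for the tested other non-coding genes, 1.498 for the antisense RNA genes and 1.29 for the pseudogenes.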
